A study of Caenorhabditis elegans with 12 samples.

Results

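Gene expression in worms given naringin on glucose (Nar+Glu) was set against worms given glucose alone (Glu), with 3 libraries a side. These are 6 of the 12 libraries of the series, taken by their labels. A change was measured for 12151 of the 15365 genes in the files, namely those whose mean over all 12 libraries exceeded 1 FPKM. FPKM is the number of sequenced fragments scaled by transcript length and by library size, so it can be compared between genes as a level per length.

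All libraries came from whole N2 (wild type) Caenorhabditis elegans kept at 20 °C on OP50 bacteria. The methods of the study state that worms stayed on the treatments for several days from the L4 larval stage on, and so were adults. The same methods state that progeny were removed by letting the adults settle. Nar+Glu worms received 25 μM naringin, a flavanone glycoside of citrus fruit, dissolved in dimethyl sulfoxide (DMSO), together with 2% glucose. Glu worms received the same glucose with neither naringin nor the solvent. The other 6 libraries are DMSO+Glu, which holds the solvent and the glucose, and Control, which holds none of these. Naringin and its solvent therefore cannot be told apart within Nar+Glu against Glu. The DMSO+Glu libraries are used below to set the values of the solvent alone beside some of the changes, not all. They share libraries with the main comparison, so the steps are no independent results.

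The adult worm is encased in a cuticle built from a large family of small collagens, secreted by the epidermis in waves that are tied to each molt and, for some members, to adult life. The hermaphrodite makes its sperm late in larval life, stores them in the spermatheca and then switches its germline to oocytes. Sperm precursors transcribe the major sperm protein (MSP) genes, whose product drives sperm crawling and also signals to oocytes. Sugar that is not burnt can be stored as fat, whose fatty acids desaturases and elongases modify.

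The 6 libraries were alike in overall composition. Their summed FPKM was 315637 ± 5990 in Nar+Glu and 327040 ± 10847 in Glu (SD, n = 3 each), a difference with an exact two-sided permutation p of 0.2, where 0.1 is the smallest that 3 against 3 allow. Pearson's r of log2 values across genes was 0.987 to 0.990 within groups and 0.975 to 0.980 between them. The labels do not say whether the libraries of a group came from separate cultures, so p-values measure the spread between these libraries, which may be technical. The number of fragments behind a value is unknown. Markers of intestine, neurons, body wall muscle, pharynx, epidermis and germline were among the genes tested. A tested gene had to exceed a mean of 1 FPKM, so their presence follows from the filter. Of the 7 intestinal markers 3 changes were positive and 4 negative, and ges-1, a gut esterase, was called lower (-0.38). That call was lost without Glu replicate 2 or 3 or any 1 Nar+Glu library. Summed, the 7 gave 2348, 2403 and 2302 in Nar+Glu, against 2246, 2168 and 2152 in Glu (FPKM). rab-3 (neurons) and pha-4 (pharynx) were called higher and unc-54 (body wall muscle) lower. Changes were positive in 5 of 6 neuronal, 4 of 6 pharyngeal and 3 of 6 body wall muscle markers. In the epidermis wrt-2 was higher and col-19 lower, and no germline marker was called. The 9 markers of zygotic transcription in embryos that the files hold summed to 21.0, 22.9 and 25.8 in Nar+Glu, against 21.2, 18.8 and 20.8 in Glu (FPKM), and none of the 6 tested was called. The ranges overlapped, and their part in any result was not tested.

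Of the 12151 genes, 1017 (8.37%) passed limma with an adjusted p (Benjamini-Hochberg) below 0.05. Of these, 466 (3.84%) were higher and 551 (4.53%) were lower in Nar+Glu. All changes are differences in log2(FPKM + 1), Nar+Glu minus Glu, a scale that understates the change of genes near or below 1 FPKM. The middle of the distribution moved little, with a median change of -0.02 over all genes, and the called genes had a median size of 0.52. Large changes were mostly falls, since 163 genes were called lower by more than 1 log2 unit and 19 were called higher by as much. In 3660 genes (30.1%) the 3 Nar+Glu libraries did not overlap the 3 Glu libraries, and 1016 of the 1017 called genes were among them. Before adjustment, 2747 genes had a p below 0.05. At the study's own thresholds, which pair that unadjusted p with a small minimum fold, 2718 genes passed, 1341 higher and 1377 lower.

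Leaving out a library lowered the count. It ran from 586 (Nar+Glu replicate 3 left out) to 683 (Glu replicate 3 left out), and was 588 when Glu replicate 2 was the one omitted. Rises then numbered 205 to 309 and falls 353 to 420. The fit was run with limma under 15 other settings, 6 of which each left out a library. Many calls that held in few of them are given below with the number of settings that kept them. Not every such call carries a number, and 57 of the 138 calls given by name were lost in at least 1 limma setting. Median-ratio scaling gave 682 higher and 564 lower, so the excess of falls over rises was not kept there, nor with quantile normalization (623 higher, 508 lower). An unmoderated F test per gene on the 6 libraries alone, of the kind the study's software runs, called 1 gene higher and none lower at an adjusted p below 0.05, while 2155 genes passed the study's thresholds in it.

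**Figure D1:**
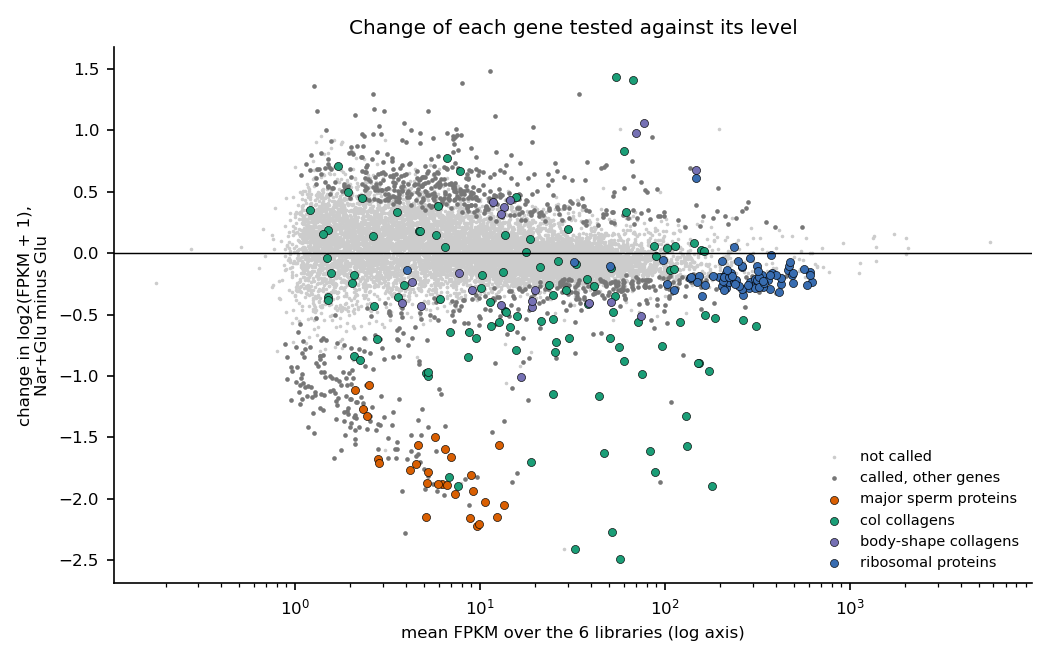
Each point is 1 of 12151 genes, with its mean FPKM over the 6 libraries on a log axis and its change in log2(FPKM + 1), Nar+Glu minus Glu, on the vertical axis. The 28 MSP genes all lie below -1, col collagens run from -2.49 to 1.43, and ribosomal protein genes form a band just below 0 at the right.

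The MSP genes were lower in Nar+Glu in every case. All 28 MSP genes tested were called lower, against 4.53% of all genes, with changes of -2.22 to -1.07 and a median of -1.79, where the median of all genes was -0.02. Their mean levels ran from 0.815 to 5.99 FPKM in Nar+Glu and from 3.26 to 22.4 FPKM in Glu, so that the ratio of the means was between 3.04-fold and 7.12-fold lower in Nar+Glu. Summed over the 28 genes, the FPKM were 54.2, 76.4 and 67.8 in Nar+Glu, against 298, 312 and 304 in Glu, with no overlap between the groups.

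The largest MSP fall was that of msp-51 (chromosome IV, 5294957 to 5295340, WBcel235), at 2.91, 3.76 and 1.79 FPKM in Nar+Glu, against 17.2, 16.36 and 15.8 FPKM in Glu. Every Nar+Glu library lay far below every Glu library. The log2 change was -2.22 ± 0.15 (SE, adjusted p = 3.70e-07). msp-76, with 1.81, 4.52 and 2.62 FPKM in Nar+Glu, against 20.9, 13.8 and 16.06 FPKM in Glu, had a wider spread and a change of -2.205 ± 0.21 (adjusted p = 1.20e-05). msp-31, on chromosome II, measured 5.02, 5.50 and 3.57 FPKM in Nar+Glu, against 23.5, 21.5 and 22.1 FPKM in Glu, and msp-53, msp-59, msp-152 and msp-19 changed by -2.15, -2.15, -2.14 and -2.03. MSP genes are near-identical copies among which the assembly of reads into transcripts can split fragments, so the values of single members are uncertain and the sum over the family is the firmer measure. The 28 members lie on chromosomes II (10 genes, median change -1.69) and IV (18 genes, median -1.88).

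The DMSO+Glu libraries lay between the groups. The 28 genes summed to 185, 179 and 151 FPKM in DMSO+Glu. Their median change was -0.74 in DMSO+Glu against Glu, where 10 of the 28 were called lower (1.25% of all genes were called in that comparison), and -1.05 in Nar+Glu against DMSO+Glu, where 25 were called lower (9.87% of all genes were called). Control libraries, without glucose, summed to 171, 177 and 145 FPKM.

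Many of the other sperm genes were lower as well. Of 18 tested from a list of spermatogenesis genes, 11 were called lower, against 4.53% of all genes, and none higher, with a median of -0.74. The 11 called all averaged below the 5 FPKM set for naming, and those given here were named after their values were seen. The 3 most abundant of the 18, spe-39, spe-48 and spe-44, were above that level and were not called, with changes of -0.10, -0.06 and -0.04. sss-1 measured 0.868, 1.94 and 1.43 FPKM in Nar+Glu, against 6.78, 5.84 and 7.26 FPKM in Glu, and the groups did not overlap. The sperm-specific protein phosphatase catalytic subunits gsp-4 and gsp-3 changed by -1.32 and -0.73, and spe-11, a sperm factor that the embryo needs, by -0.86 (adjusted p = 4.58e-04, 0.0143 and 0.00256). msrp-2, whose product carries the MSP fold, had 2.59, 2.11 and 3.86 FPKM in Nar+Glu, against 13.0, 14.8 and 16.3 FPKM in Glu (change -2.05 ± 0.19, adjusted p = 7.74e-06). Y59E9AR.7 on chromosome IV changed by -1.97 ± 0.13.

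Families noticed after the values were seen moved with them. All 8 tested nspd genes, a nematode-specific peptide family, were called lower with a median of -1.60, as were all 4 nspa genes (median -1.62) and 5 of 6 nsph genes (median -1.42). Of 23 genes of the ssp, ssq, msd, msrp, spch and smz families, named for sperm or for the MSP fold, 20 were called lower and none higher. The share of all genes called lower was 4.53%. Of the 163 genes called lower by more than 1 log2 unit, 35 belonged to the MSP and sperm lists and 15 to the collagen lists. In bulk RNA, fewer cells of a type and less RNA per cell cannot be told apart.

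Germline and oocyte genes were called about as often as all genes, of which 8.37% were called. Of 30 oocyte and eggshell genes 2 were called higher and none lower, the median was -0.12 and 26 were negative. The 2 were cav-1, a caveolin of oocyte membranes, with 108, 109 and 113 FPKM in Nar+Glu, against 91.9, 89.2 and 85.8 FPKM in Glu (change 0.31 ± 0.06, adjusted p = 0.00377), and perm-2, a component of the vitelline layer of the eggshell, with a change of 0.21 (adjusted p = 0.0381). The perm-2 call was lost on leaving out any of the 6 libraries. Of 22 genes of germline maintenance 2 were called lower, fbf-2 (-0.30), a regulator of germline stem cells, and csr-1 (-0.24), an Argonaute of germline small RNAs, and 20 were negative. fbf-2 was kept in 9 of 15 settings and csr-1 in 7, and no germline maintenance gene was called without Glu replicate 1, 2 or 3 or Nar+Glu replicate 3, or with the 6 libraries alone. The 7 germline markers had no call.

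The cuticle collagens changed in both directions and held the 3 largest falls among called genes that averaged at least 5 FPKM. Of 129 collagen genes tested, 109 of the col family and 20 named for body shape, 51 were called lower and 10 higher, against 4.53% and 3.84% of all genes. The col family had a median of -0.38 and a range of -2.49 to 1.43, with 47 lower and 6 higher, and the body-shape collagens had a median of -0.30, with 4 lower and 4 higher.

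**Figure D2:**
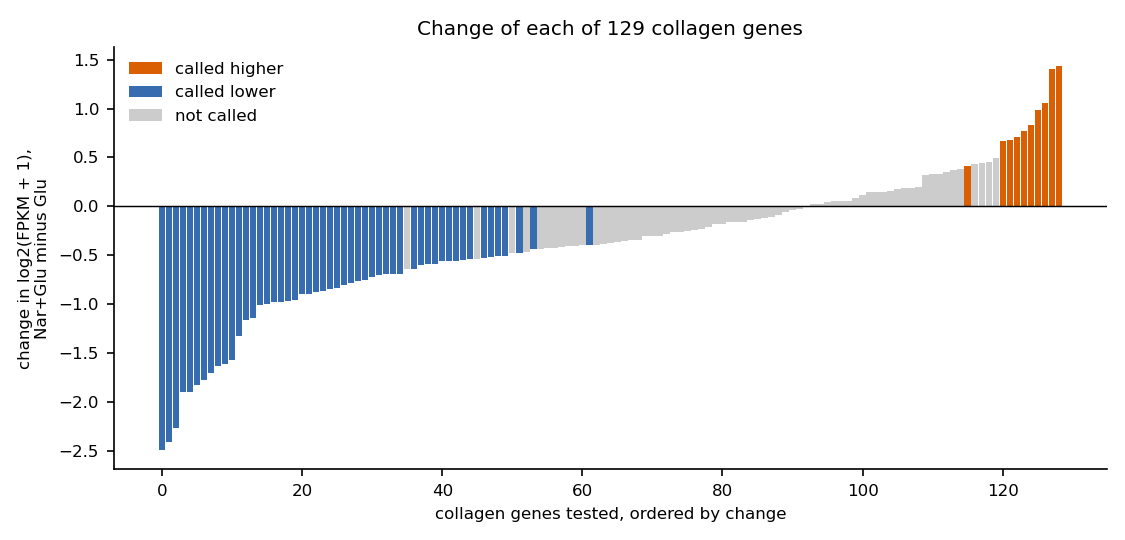
Each bar is 1 of the 129 collagen genes tested, ordered by its change in log2(FPKM + 1), Nar+Glu minus Glu. Blue bars are the 51 genes called lower, orange bars the 10 called higher and grey bars those not called, and the falls reach -2.49 while the rises stop at 1.43.

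col-139 (chromosome V, 4652863 to 4653971) had the largest fall among all genes named, at 19.7, 13.9 and 16.8 FPKM in Nar+Glu, against 104, 99.7 and 91.1 FPKM in Glu. Each Glu library was several times above each Nar+Glu library, and the change was -2.49 ± 0.10 (adjusted p = 2.75e-09). col-81 (chromosome II, 11012397 to 11013767) measured 11.1, 8.69 and 9.45 FPKM in Nar+Glu, against 54.2, 60.8 and 52.7 FPKM in Glu, a change of -2.41 ± 0.09 (adjusted p = 1.04e-09). col-129 (chromosome IV, 12108734 to 12110439) measured 21.0, 16.3 and 14.7 FPKM in Nar+Glu, against 89.6, 89.8 and 80.4 FPKM in Glu, a change of -2.27 ± 0.11 (adjusted p = 1.40e-08). These 3 lay on 3 different chromosomes. Their DMSO+Glu means were 53.99, 33.8 and 50.4 FPKM, so that the solvent step against Glu was -0.85, -0.71 and -0.77 and the step from DMSO+Glu to Nar+Glu was -1.64, -1.70 and -1.50.

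col-19, the collagen most used to mark the adult epidermis, had 44.1, 37.5 and 40.8 FPKM in Nar+Glu, against 130.3, 133 and 115 FPKM in Glu, and fell by 1.61 on the log2 scale (SE 0.07, adjusted p = 1.34e-08). Its DMSO+Glu mean was 105 FPKM. Abundant collagens named after their values were seen behaved alike in direction, since col-124 averaged 76.0 FPKM in Nar+Glu against 285 FPKM in Glu, col-93 65.9 FPKM in Nar+Glu against 197 FPKM in Glu, col-20 39.9 FPKM in Nar+Glu against 138 FPKM in Glu and col-119 248 FPKM in Nar+Glu against 374 FPKM in Glu, with changes of -1.90, -1.57, -1.78 and -0.59. Of the body-shape collagens, bli-6, a gene whose mutants blister, had 12.2, 9.46 and 10.7 FPKM in Nar+Glu, against 23.8, 20.9 and 23.01 FPKM in Glu (change -1.01 ± 0.11, adjusted p = 3.60e-05). sqt-1 (-0.44), dpy-13 (-0.40) and dpy-4 (-0.51) were also called lower, with adjusted p of 0.0388, 0.0426 and 0.0448. sqt-1 was kept in 8 of 15 settings, dpy-13 in 6 and dpy-4 in 5, and the calls of sqt-1 and dpy-13 were lost on leaving out any 1 library. dpy-4 was the 1 called collagen whose groups overlapped.

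A smaller set of collagens went the other way. col-165 (X) measured 85.3, 73.9 and 79.9 FPKM in Nar+Glu, against 28.8, 27.6 and 30.2 FPKM in Glu, and col-74 (chromosome II) 107, 93.2 and 96.4 FPKM in Nar+Glu, against 34.8, 37.3 and 37.5 FPKM in Glu. In both, each Nar+Glu library was far above each Glu library, with changes of 1.43 ± 0.09 and 1.41 ± 0.10 (adjusted p = 9.95e-08 and 7.19e-07). dpy-14, dpy-17 and sqt-3, body-shape collagens, were higher as well. dpy-14 had 103, 100.2 and 113 FPKM in Nar+Glu, against 50.2, 50.6 and 49.0 FPKM in Glu, a change of 1.06 ± 0.07 (adjusted p = 2.04e-07). dpy-17 had 98.9, 89.1 and 91.4 FPKM in Nar+Glu, against 48.2, 45.2 and 46.4 FPKM in Glu, a change of 0.98 ± 0.06 (adjusted p = 9.95e-08). sqt-3 changed by 0.68 ± 0.10, dpy-3 by 0.41 and col-95 by 0.84. For col-165, col-74, dpy-14 and dpy-17 the DMSO+Glu means of 28.2, 34.9, 48.0 and 41.0 FPKM lay near the Glu values, with solvent steps of -0.04, -0.08, -0.06 and -0.18.

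Over the 129 collagens, 7 were called lower and none higher in DMSO+Glu against Glu, where 1.25% of all genes were called. In Nar+Glu against DMSO+Glu 57 were called lower and 10 higher, where 9.87% of all genes were called. The enzymes that process collagens had no call among 13 tested, and their median was 0.05. With a library left out, 41 to 52 col genes were called lower and 5 or 6 higher. The body-shape collagens then had 1 to 3 falls, 1 of them without Glu replicate 1 or 3 or Nar+Glu replicate 2 or 3, and 3 or 4 rises. Their falls numbered 2 under median-ratio scaling and 1 without the variance trend.

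**Figure D3:**
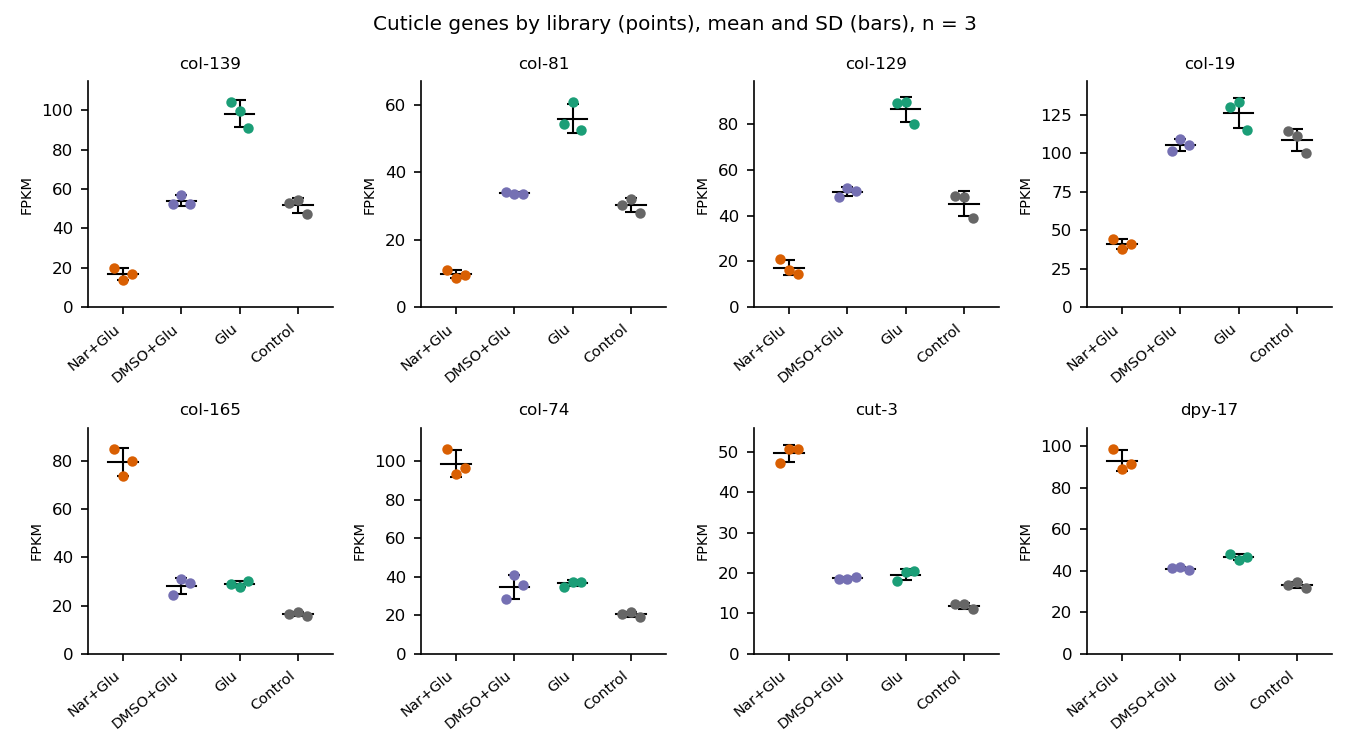
Points are the FPKM of single libraries for 8 cuticle genes in Nar+Glu, DMSO+Glu, Glu and Control, with the mean and SD (n = 3) as bars. In the upper row Nar+Glu lies below Glu, as in col-139 with 13.9 to 19.7 against 91.1 to 104 FPKM, and in the lower row it lies above Glu, as in cut-3 with 47.3 to 50.8 against 17.9 to 20.5 FPKM.

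Genes of other cuticle and epidermal secretions had more rises than falls. Of 39 astacin and cuticlin genes, 5 were called higher and 1 lower, against 3.84% and 4.53% of all genes, with a median of 0.25. They encode processing proteases and non-collagen cuticle proteins. cut-3, a cuticlin, had 47.3, 50.8 and 50.8 FPKM in Nar+Glu, against 17.9, 20.3 and 20.5 FPKM in Glu, with a change of 1.299 ± 0.07 (adjusted p = 5.06e-08) and a solvent step of -0.07. cut-2 had 109, 61.0 and 84.1 FPKM in Nar+Glu, against 49.2, 43.5 and 53.1 FPKM in Glu, where Nar+Glu varied more than Glu (change 0.75 ± 0.16, adjusted p = 0.0112, lost without Glu replicate 2).

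Hedgehog-related ligands and patched-related proteins are expanded families that the worm uses in the epidermis and molting in place of a canonical Hedgehog pathway. Of 26 ligand genes 3 were called higher (wrt-2, grl-1 and wrt-1) and 1 lower (grd-3), against 3.84% and 4.53% of all genes. The rises numbered 1 when any library but Glu replicate 3 was left out, since wrt-1 was kept in 9 of 15 settings and grl-1 in 7 of the 14 that tested it. wrt-2, an epidermal member, had 11.8, 11.02 and 10.9 FPKM in Nar+Glu, against 6.04, 6.25 and 7.96 FPKM in Glu (change 0.67 ± 0.14, adjusted p = 0.00970), while grd-3 had 11.4, 12.35 and 14.9 FPKM in Nar+Glu, against 18.5, 24.6 and 21.0 FPKM in Glu (change -0.69 ± 0.12, adjusted p = 0.00196). Of 23 patched-related genes 3 were called higher and none lower, led by F43D9.1 (ptr-25 in the current annotation), with 9.01, 10.2 and 9.14 FPKM in Nar+Glu, against 5.04, 5.19 and 5.61 FPKM in Glu (change 0.73 ± 0.10, adjusted p = 2.19e-04). ptr-5 and ptr-4 changed by 0.46 and 0.35, and the patched-related rises numbered 1 when any library but Nar+Glu replicate 1 was left out. The nuclear hormone receptors, of which 137 were tested, had 6 called higher and none lower, against a background of 3.84% higher. Among these were nhr-62 (0.61), nhr-3 (0.48), nhr-34 (0.47) and, named after its value was seen, nhr-25 (0.44), a regulator of epidermal development and molting. The receptor rises numbered 1 without Glu replicate 2 and 2 without Nar+Glu replicate 2. lam-3, the laminin alpha chain of basement membranes, was the 1 call of 16 basement membrane genes, at 8.86, 8.79 and 9.17 FPKM in Nar+Glu, against 6.26, 6.24 and 6.08 FPKM in Glu (change 0.47 ± 0.09).

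The remaining large rises were outside the gene lists. T05H10.3 (chromosome II, 8049024 to 8050577) had the largest rise of the genes named, with 18.6, 17.4 and 15.6 FPKM in Nar+Glu, against 5.204, 6.08 and 5.25 FPKM in Glu, a change of 1.48 ± 0.13 (adjusted p = 4.00e-06). K01D12.1 had 11.2, 11.2 and 13.6 FPKM in Nar+Glu, against 3.99, 4.13 and 3.79 FPKM in Glu (change 1.38 ± 0.16), and T20F5.4 averaged 17.03 FPKM in Nar+Glu against 7.30 FPKM in Glu (change 1.12 ± 0.10). Those 3 did not overlap between the groups, which the rule for naming them required. C10F3.7, R09E10.5 and C50F2.4 changed by 1.16, 0.98 and 1.01. hil-7, a linker histone-like gene, had 28.1, 25.7 and 25.0 FPKM in Nar+Glu, against 12.1, 10.96 and 14.2 FPKM in Glu (change 1.03 ± 0.12, adjusted p = 7.96e-05). In DMSO+Glu these genes measured 5.92 (T05H10.3), 4.104 (K01D12.1), 7.21 (T20F5.4) and 10.9 (hil-7) FPKM on average.

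The desaturase genes fat-5, fat-6 and fat-7 were all lower in Nar+Glu. They encode the delta-9 desaturases that put the first double bond into palmitic or stearic acid. fat-7 (chromosome V, 7151353 to 7153146) had 12.5, 11.9 and 12.1 FPKM in Nar+Glu, against 19.3, 19.9 and 19.2 FPKM in Glu, with a change of -0.64 ± 0.09 (adjusted p = 4.26e-04). fat-5 had 31.1, 29.7 and 27.6 FPKM in Nar+Glu, against 40.9, 44.6 and 37.6 FPKM in Glu (change -0.46 ± 0.07, adjusted p = 0.00109), and fat-6 had 51.2, 55.8 and 53.2 FPKM in Nar+Glu, against 72.0, 66.0 and 69.6 FPKM in Glu (change -0.37 ± 0.07, adjusted p = 0.00452). None of the 3 overlapped between the groups, as was true of 1016 of the 1017 called genes. The solvent steps were 0.18 (fat-7), -0.08 (fat-5) and -0.17 (fat-6). let-767 (-0.41), which acts in fatty acid elongation, and the elongase elo-1 (-0.29) were the other falls among 18 desaturases and elongases, with no rise and a median of -0.10. Of the 18, 5 were called lower, against 4.53% of all genes, and these 5 calls were kept on leaving out any 1 library.

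Of 41 genes of beta-oxidation, 8 were called lower, against 4.53% of all genes, and none higher (median -0.20, range -1.15 to 0.33). Among them were hacd-1, a hydroxyacyl-CoA dehydrogenase, with 50.0, 55.6 and 54.8 FPKM in Nar+Glu, against 70.8, 68.2 and 69.1 FPKM in Glu (change -0.37 ± 0.07, adjusted p = 0.00633), the peroxisomal thiolase daf-22 (-0.32) and the enoyl-CoA hydratase-like ech-4 (-0.32, kept in 8 of 15 settings). hacd-1 averaged 51.3 FPKM in DMSO+Glu. Without a library the count of falls was 3 to 6, lowest without Glu replicate 3. acs-2, an acyl-CoA synthetase that feeds beta-oxidation, was not called (change -0.20 ± 0.07, adjusted p = 0.117), at 40.9, 42.1 and 42.2 FPKM in Nar+Glu, against 47.05, 45.8 and 51.9 FPKM in Glu. Its 2 steps ran in opposite directions, at -0.66 in DMSO+Glu against Glu and 0.46 in Nar+Glu against DMSO+Glu. Of 16 acyl-CoA synthetases 1 was called in each direction. acs-20, needed for the epidermal lipid barrier, was higher (0.37, adjusted p = 0.0411, kept in 9 of 15 settings) and acs-19 was lower (-0.18, adjusted p = 0.0492), a call lost in most settings. Of the lipid carriers, far-6 (0.35) and lbp-2 (0.31) were higher and lbp-6 (-0.34, kept in 8 of 15 settings) lower, among 15 tested. Lipases and lipid droplet genes had no call among 14. Of 18 genes of the methionine cycle and of phosphatidylcholine synthesis, pmt-2, a methyltransferase that makes phosphocholine, was lower (67.5, 70.7 and 67.8 FPKM in Nar+Glu, against 89.8, 86.5 and 92.4 FPKM in Glu, change -0.38 ± 0.07), as was ahcy-1, an S-adenosylhomocysteine hydrolase (-0.18, kept in 6 of 15 settings), and none was higher. hach-1 (-0.27) was the 1 call among 10 genes of propionate breakdown.

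Genes of central carbon metabolism had small falls and no rise, where 3.84% of all genes were called higher and 4.53% lower. Of 22 genes of glycolysis and gluconeogenesis 5 were called lower and none higher (median -0.17), among them aldo-1, a fructose-bisphosphate aldolase, with 30.3, 29.7 and 29.7 FPKM in Nar+Glu, against 39.7, 39.4 and 40.5 FPKM in Glu (change -0.40 ± 0.06, adjusted p = 0.00105). The glyceraldehyde-3-phosphate dehydrogenases gpd-2 (-0.41) and gpd-3 (-0.37) are neighbouring near-identical copies, and the division of reads between them is uncertain. Of 25 citrate cycle genes 10 were lower and none higher (median -0.21), among them mdh-2, the mitochondrial malate dehydrogenase, with 117, 113 and 109.5 FPKM in Nar+Glu, against 150, 138 and 146 FPKM in Glu (change -0.35 ± 0.06, adjusted p = 0.00130). idhg-2, an isocitrate dehydrogenase subunit, changed by -0.42 (kept in 10 of 15 settings) and mev-1, a succinate dehydrogenase subunit, by -0.38 (kept in 3 of 15). Of 42 nuclear genes of the respiratory chain 17 were lower and none higher (median -0.22), among them the ATP synthase subunits asb-1 (-0.34) and asg-2 (-0.30) and the complex I subunit nuo-1 (-0.30). The 11 genes encoded by the mitochondrial genome had no call and a median of 0.03.

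The ribosomal protein genes formed a narrow band. Of 78 tested, 36 were called lower, against 4.53% of all genes, and none higher, 76 were negative and the median was -0.20. Summed, they gave 20942, 21874 and 20769 in Nar+Glu, against 24388, 24335 and 23837 in Glu (FPKM), without overlap. rpl-20, of the large subunit, had 239, 234 and 228 FPKM in Nar+Glu, against 289, 295 and 302 FPKM in Glu (change -0.34 ± 0.05, adjusted p = 5.05e-04), rpl-9 changed by -0.31 and rps-16 by -0.35. All 33 proteasome genes were negative, with a median of -0.16. The 3 called lower were rpt-4 (-0.26, kept in 6 of 15 settings), rpn-5 (-0.24) and rpt-5 (-0.22), the last pair kept in 7 each. Of 16 translation factors only eif-6 (-0.28, kept in 9 of 15 settings) was called.

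These counts moved with the scaling. The ribosomal falls numbered 20 under median-ratio scaling, 10 under quantile normalization and 14 to 34 without 1 library (14 without Glu replicate 2 or Nar+Glu replicate 3). The citrate cycle had 11, 4 and 2 to 8 falls under the same settings, the respiratory chain 15, 7 and 8 to 10, and glycolysis 6, 6 and 3 to 4. The proteasome had 2, 0 and 0 to 1, with none called without Glu replicate 1 or 2 or Nar+Glu replicate 1 or 3, nor without the variance trend. The list medians were below 0 in each of these settings. Genes with a mean above 100 FPKM were called most often, with 20 of 468 higher and 100 lower (25.6% called, median -0.11). Between 1 and 5 FPKM, 193 of 4071 genes were higher and 184 lower (9.26%, median 0.09). The share called was 7.73% between 5 and 20 FPKM and 5.95% between 20 and 100 FPKM, so it did not rise steadily with the level.

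**Figure D4:**
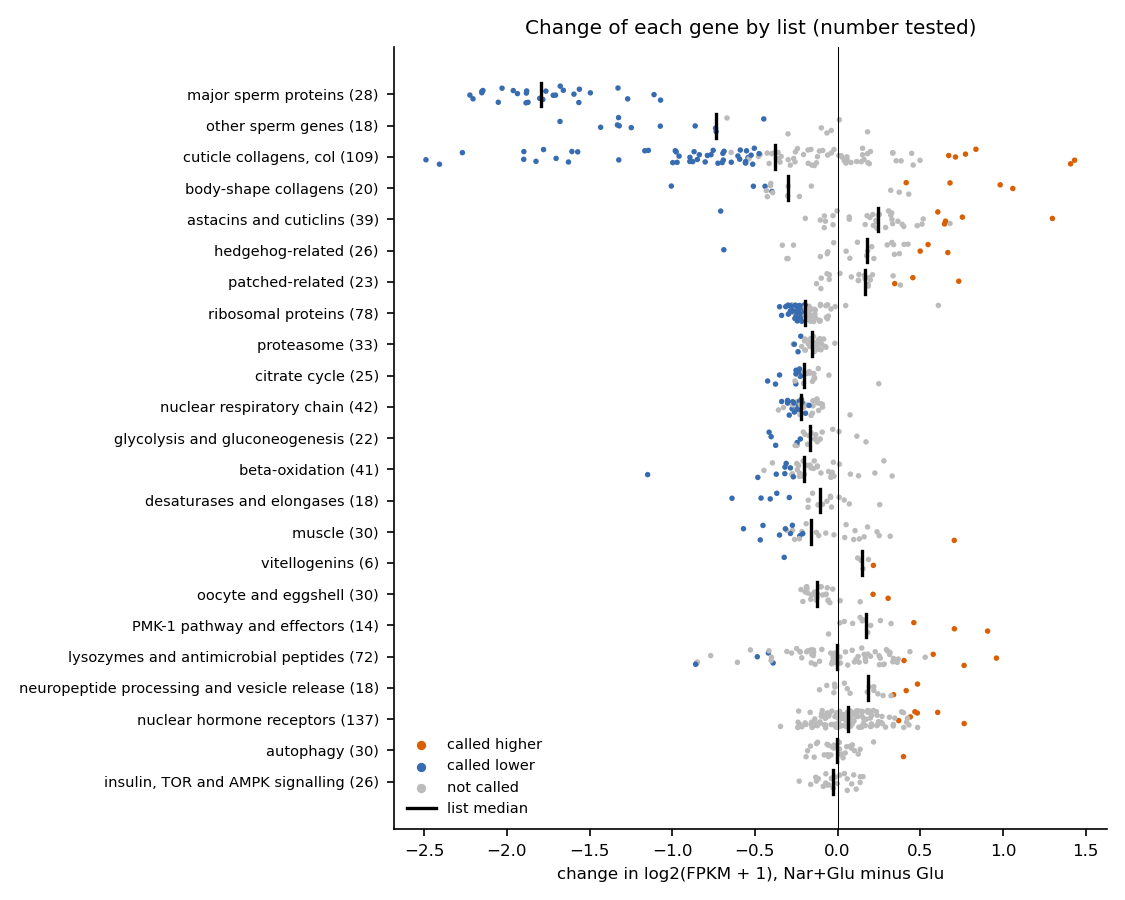
Each point is a gene of the list named at the left (number tested in brackets), placed at its change in log2(FPKM + 1), Nar+Glu minus Glu, with the list median as a black bar. MSP genes lie furthest to the left with a median of -1.79, ribosomal, proteasome and mitochondrial lists sit just left of 0, and astacins and cuticlins have the highest median shown, 0.25.

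The yolk genes had small changes of both signs. Of the 6 vitellogenin genes, which make yolk lipoproteins in the intestine, vit-1 was lower, with 98.5, 103 and 91.8 FPKM in Nar+Glu, against 126, 121 and 120.3 FPKM in Glu (change -0.32 ± 0.06, adjusted p = 0.00266). vit-4 was higher, with 418, 449 and 413 FPKM in Nar+Glu, against 378, 358 and 365 FPKM in Glu (change 0.22 ± 0.06, adjusted p = 0.0332), a call lost on leaving out any 1 library. vit-3, vit-2, vit-5 and vit-6 had changes of 0.19, 0.15, 0.14 and 0.12 (adjusted p = 0.0698, 0.14, 0.190 and 0.247). For vit-1 the DMSO+Glu mean of 172 FPKM was above both groups, so that the steps were 0.49 (DMSO+Glu against Glu) and -0.81 (Nar+Glu against DMSO+Glu). Some vitellogenins are close copies of each other, and reads could be divided between them.

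The study names 19 genes tested here, for autophagy, longevity, Hippo signalling and lipids or as its PCR reference (act-1). Of these 5 were called, 1 higher and 4 lower, against 3.84% and 4.53% of all genes. Some of the 19 were chosen there with these same samples in view, so the list is not independent evidence. Besides the 3 desaturases these were act-1 (-0.32, adjusted p = 0.00294), an actin with near-identical copies, and pha-4 (0.50, adjusted p = 0.0373), a FOXA factor of the pharynx and of dietary restriction, at 10.8, 9.18 and 9.35 FPKM in Nar+Glu, against 8.08, 4.92 and 7.06 FPKM in Glu. The pha-4 call was lost without Nar+Glu replicate 1, 2 or 3 or Glu replicate 2 or 3. The regulators of autophagy and lysosomes were not called, with changes of 0.14 (hlh-30), 0.10 (unc-51), -0.03 (lgg-1) and 0.03 (bec-1). Nor were the longevity regulators daf-16 (0.06), skn-1 (0.05) and aak-2 (-0.13), the Hippo pathway genes yap-1 (0.24) and egl-44 (0.23), or the lipid genes nhr-49 (-0.0049), sbp-1 (0.05), acs-4 (-0.10) and ech-6 (-0.21). Their adjusted p were 0.0618 (ech-6) to 0.983 (nhr-49). The study called its differential genes in Nar+Glu against DMSO+Glu and measured some by PCR, so its changes are not those given here. The median change of the 19 genes was -0.09 in DMSO+Glu against Glu and 0.10 in Nar+Glu against DMSO+Glu. More broadly, 26 genes of insulin, TOR and AMPK signalling and 8 of Hippo signalling had no call, and of 30 autophagy genes 1 was higher, epg-2, an adaptor of aggregate autophagy (37.6, 38.9 and 40.003 FPKM in Nar+Glu, against 31.1, 29.3 and 27.3 FPKM in Glu, change 0.40 ± 0.08, adjusted p = 0.00490). Of 46 lysosomal genes 2 were higher and 3 lower. The autophagy and lysosomal counts stand against 3.84% higher and 4.53% lower among all genes. The aspartyl protease asp-12 had 13.8, 12.2 and 12.5 FPKM in Nar+Glu, against 23.1, 24.6 and 24.3 FPKM in Glu (change -0.86 ± 0.12, adjusted p = 3.40e-04), and of its relatives asp-1 changed by -0.32 and asp-14 by 0.38. Of 20 TGF-beta genes daf-14, a Smad, was higher (0.43), and of 27 Wnt genes the frizzled receptors lin-17 (0.40) and cfz-2 (0.38) were. The share of all genes called higher was 3.84%. Both frizzled calls were lost in most settings that left out a library. lin-17 was kept in 8 of 15 settings and cfz-2 in 4 of the 14 that tested it.

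Among immune genes, the PMK-1 list had rises, and the larger families had calls near the background of 3.84% higher and 4.53% lower. T24B8.5 (sysm-1 in the current annotation), an effector of the PMK-1 p38 pathway, had 22.03, 29.3 and 24.3 FPKM in Nar+Glu, against 11.8, 13.5 and 13.4 FPKM in Glu (change 0.91 ± 0.11, adjusted p = 1.27e-04), without overlap. irg-5 (0.71) and irg-4 (0.46) were the other rises among 14 genes of that list, with no fall, and a median of 0.17. irg-5 was kept in 9 of the 14 settings that tested it, and irg-4 was lost without Glu replicate 2. Without that library the list had 1 rise and a median of 0.06, and leaving out any other gave 2 or 3 rises. The solvent step of T24B8.5 was 0.86 and that of irg-4 0.67, against 0.05 and -0.21 in Nar+Glu against DMSO+Glu. Of 72 lysozyme and antimicrobial peptide genes 4 were higher and 5 lower. The 4 were the caenacin and nlp antimicrobial peptides cnc-7, cnc-4, nlp-29 and nlp-31, and nlp-29 had 91.6, 87.8 and 87.6 FPKM in Nar+Glu, against 63.9, 61.3 and 53.2 FPKM in Glu (change 0.58 ± 0.11, adjusted p = 0.00515). cnc-7 and cnc-4 changed by 0.96 and 0.77. Of those that were lower, spp-2, spp-17 and spp-8, saposin-like proteins, changed by -0.49, -0.42 and -0.39. Of 74 C-type lectins 5 were higher and 2 lower, with F56A4.2, clec-209 and clec-190 at 0.52, 0.51 and 0.39 and clec-50 at -0.25, the last pair kept in 8 of 15 settings each. Changes in the lectin list ran from -0.71 to 0.58. The solvent steps of F56A4.2 and clec-209 were 0.48 and 0.47.

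Of 15 genes downstream of DAF-16, the FOXO factor of insulin signalling, 2 were higher and 3 lower. The shares of all genes were 3.84% and 4.53%. The list was not split by whether DAF-16 raises or lowers a gene, so the counts give no direction for the pathway. dod-24 had 9.87, 10.5 and 9.94 FPKM in Nar+Glu, against 6.15, 5.23 and 4.36 FPKM in Glu (change 0.84 ± 0.10, adjusted p = 1.02e-04) and mtl-1, a metallothionein, had 31.3, 36.2 and 38.3 FPKM in Nar+Glu, against 55.8, 60.0 and 51.6 FPKM in Glu (change -0.65 ± 0.09, adjusted p = 4.19e-04). Their solvent steps were 0.80 (dod-24) and -0.87 (mtl-1). dod-19 (0.34) was higher and the peroxisomal catalase ctl-2 (-0.41) lower. Of 21 heat shock and chaperone genes hsp-43 (0.27) was higher and 3 were lower, with hsp-1 at -0.18 (kept in 5 of 15 settings). Changes in that list reached -0.50. No chaperone fall was called without Glu replicate 1, 2 or 3 or Nar+Glu replicate 1, with the 6 libraries alone or with the replicate block. Among 24 genes of glutathione and SKN-1 defence prdx-2 (-0.19, kept in 6 of 15 settings) and ctl-2 were lower. Of 45 UDP-glucuronosyltransferases 4 were lower and none higher, with changes in the list from -0.66 to 0.34. Among the 4 were C23G10.6 (ugt-66 in the current annotation, -0.51), ugt-47 (-0.40) and ugt-62 (-0.28, kept in 9 of 15 settings). Of 42 cytochrome P450 genes 1 was higher. The 166 F-box, MATH and BTB genes, a large class of candidate ubiquitin ligase adaptors, had 1 call, math-41 (0.54, adjusted p = 0.0381, kept in 6 of the 14 settings that tested it), with 8.89, 6.43 and 6.73 FPKM in Nar+Glu, against 4.95, 4.06 and 5.12 FPKM in Glu.

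Of 16 genes of the osmotic response, the aquaglyceroporins aqp-1 and aqp-7, channels for glycerol and water, were lower and aqp-2 was higher. aqp-1 had 8.5, 6.65 and 9.37 FPKM in Nar+Glu, against 16.6, 14.5 and 16.7 FPKM in Glu (change -0.90 ± 0.15, adjusted p = 0.00151), and its DMSO+Glu mean was 10.3 FPKM. aqp-7 had 30.7, 31.0 and 32.5 FPKM in Nar+Glu, against 52.2, 43.1 and 55.8 FPKM in Glu (change -0.66 ± 0.10, adjusted p = 7.34e-04), and aqp-2 averaged 82.8 ± 3.20 FPKM in Nar+Glu and 65.9 ± 2.21 FPKM in Glu (SD, n = 3 each, change 0.33 ± 0.06, adjusted p = 0.00227). These 3 calls held on leaving out any 1 library. The shares over all genes were 3.84% called higher and 4.53% called lower.

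**Figure D5:**
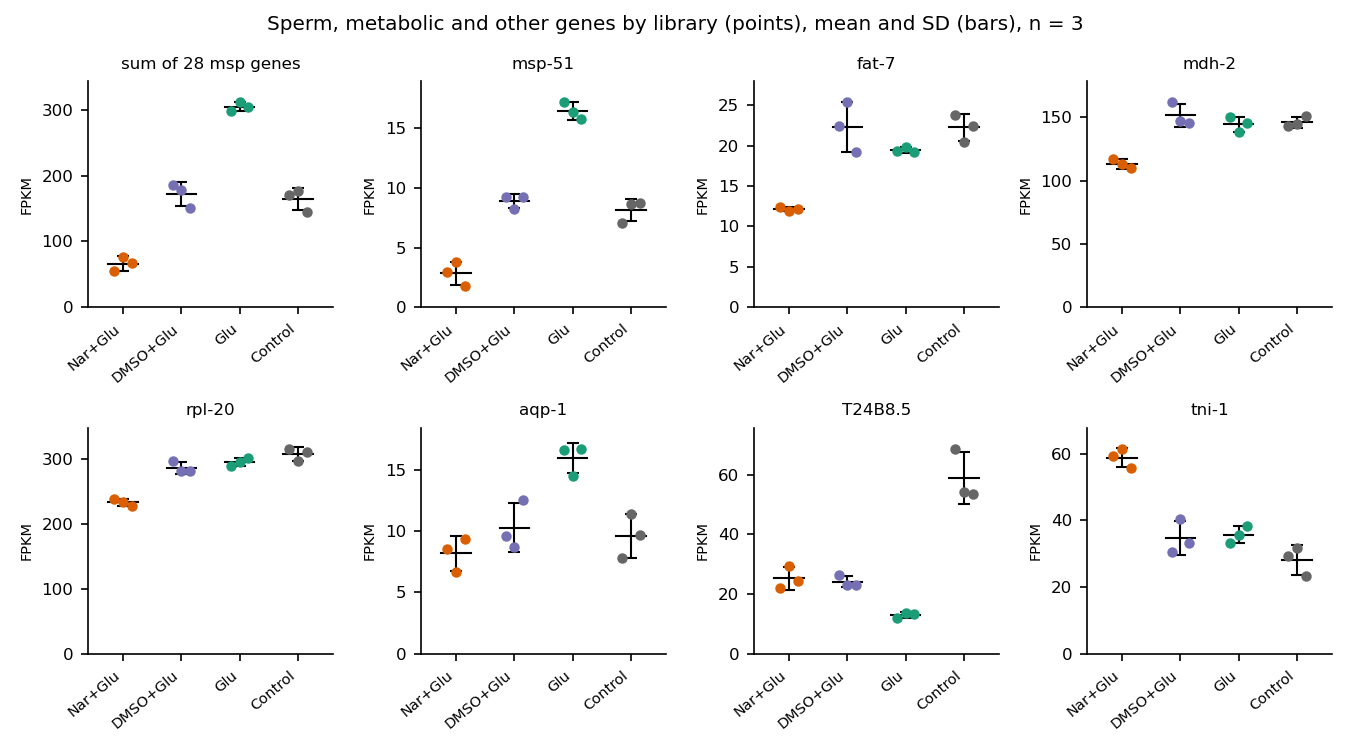
Points are the FPKM of single libraries in Nar+Glu, DMSO+Glu, Glu and Control, with the mean and SD (n = 3) as bars, for the sum of the 28 MSP genes and for 7 single genes. Nar+Glu is lowest of the 4 groups for the MSP sum (54.2 to 76.4 FPKM) and fat-7 (11.9 to 12.5 FPKM), while tni-1 is highest there (55.7 to 61.5 FPKM).

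Of 30 muscle genes tested 9 were called lower and 1 higher, against 4.53% and 3.84% of all genes, with a median of -0.16. unc-54, the major myosin heavy chain of body wall muscle, had 153, 119.4 and 125 FPKM in Nar+Glu, against 199.6, 166 and 177 FPKM in Glu (change -0.45 ± 0.09, adjusted p = 0.00600). unc-27, a troponin I, and tnt-2, a troponin T, changed by -0.47 and -0.57, and 4 of the falls were actins whose copies share reads. tni-1, another troponin I, went the other way, with 59.3, 61.5 and 55.7 FPKM in Nar+Glu, against 33.3, 35.5 and 38.4 FPKM in Glu (change 0.71 ± 0.11, adjusted p = 0.00109) and a solvent step of -0.05. The excess of falls was not kept with quantile normalization, which gave 3 falls and 3 rises, and leaving out a library gave 3 to 6 falls, with 3 falls and 2 rises without Glu replicate 3.

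Neuronal gene lists had rises and no falls, at shares near the 3.84% of all genes called higher except for vesicle release. Of 18 genes of neuropeptide processing and vesicle release 3 were higher, with a median of 0.19. rab-3, a synaptic vesicle GTPase, had 19.9, 19.3 and 18.2 FPKM in Nar+Glu, against 14.8, 11.5 and 14.0 FPKM in Glu (change 0.48 ± 0.12, adjusted p = 0.0205), and unc-10 and unc-13, which ready vesicles for release, changed by 0.42 and 0.34. Without Glu replicate 2, or Nar+Glu replicate 1 or 2, none of the 3 was called. unc-13 was kept in 6 of 15 settings and unc-10 in 5 of the 14 that tested it. ins-19, an insulin-like peptide, was the 1 call of 19 insulin-like genes, with 41.1, 51.8 and 50.1 FPKM in Nar+Glu, against 26.3, 30.2 and 27.6 FPKM in Glu (change 0.74 ± 0.12, adjusted p = 0.00101) and a solvent step of 0.38. None of 30 FLP neuropeptide genes was called, while 3 of 59 NLP genes were higher. They were nlp-39 (0.28) and the antimicrobial peptide genes nlp-29 and nlp-31, already counted among the immune genes.

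By chromosome, rises outnumbered falls most on X. Of 1736 X-linked genes tested 6.28% were called higher and 2.42% lower, with a median change of 0.07, while medians on the 5 autosomes ran from -0.04 to -0.01. Chromosome IV had the largest number of falls (132 of 1998 genes), of which 18 were MSP genes. Outside the sperm and collagen lists, X had 106 higher and 35 lower of 1716 genes.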

How the data were processed

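The deposited values are gene FPKM. According to the submitters' notes and the methods, the authors aligned trimmed reads from stranded poly(A) libraries to WBcel235 with HISAT2 2.1.0 and estimated abundance with StringTie 1.3.3. The files hold 15365 genes, and genes at a low level appear to have been removed before deposit, so nothing can be said of those. FPKM carries no depth, and a rise in very abundant RNAs lowers the values of other genes.

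Genes whose mean over the 12 libraries exceeded 1 FPKM were tested on log2(FPKM + 1) with limma 3.58.1 in R 4.3.3, with a mean-variance trend and 1 mean per group over the 4 groups. P-values were adjusted by Benjamini-Hochberg over all 12151 genes, with calls below 0.05. The script was tested on simulated data. Tables and figures were made in Python 3.11.15 with matplotlib 3.10.9. Coordinates and chromosomes come from the Ensembl release 115 annotation of WBcel235, in which 14037 genes were matched by name and 1089 by sequence name, leaving 239 unmatched.

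Genes named were the 12 largest called rises and falls with a mean of at least 5 FPKM and no overlap between the groups, up to 3 called rises and falls of each gene list at that level, 19 genes the study names, the 6 vitellogenins, members of lists with at most 6 tested (markers only as sums), and genes stated as named later, with dpy-3, dpy-13, elo-1, grl-1, irg-5, ptr-5 and unc-10, which were also named after their values were seen. The comparison and the lists were chosen with earlier results of these data known. Alternatives were another pseudocount, other filters, median-ratio and quantile scaling, the 6 libraries alone, no variance trend, array weights, a replicate block, an unmoderated test with a library covariate, and leaving out each library. Transcript and circular RNA tables were not used here, and promoter motifs were not searched.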

Additional observations from a re-analysis of the deposited data

How the results depend on the processing

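Of 1017 genes called, 466 higher and 551 lower, a filter at a mean above 5 FPKM, which tests fewer genes, left 620 (268 higher, 352 lower), with 1752 past the study's thresholds in place of 2718. The unmoderated test with a library covariate on the 6 libraries called 1 gene (1 higher, 0 lower), with 2155 past the study's thresholds. Leaving out 1 library gave 586 to 683 called genes, 205 to 309 higher and 353 to 420 lower. Rises made up 45.8% of the reported calls, against 54.7% under median-ratio scaling, 55.1% under quantile normalization and 34.9% without Glu replicate 2. The other settings with all libraries gave 929 to 1331 calls. With a replicate block 961 genes were called (422 higher, 539 lower), 899 of them among the 1017. Residuals of same-numbered Nar+Glu and Glu libraries correlated at 0.13, 0.08 and 0.00 over genes, and Nar+Glu replicate 3 correlated best with Glu replicate 2, so the numbers were not taken as pairs.

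Of 138 called genes given by name, 81 were called in every limma setting that tested them, 57 were lost in at least 1, and none changed direction. Among the genes given by name, direction turned only in those with no call. For lgg-1 the change was 0.060 with quantile normalization, and for nhr-49 it was 0.012 under median-ratio scaling, 0.045 under quantile normalization and -0.052 to 0.044 without 1 library. With the library covariate bec-1 was at -0.0091, skn-1 at -0.0050 and daf-16 at -0.0038, and skn-1 was at -0.0069 with array weights. Without 1 library, bec-1 ran from -0.015 to 0.12, skn-1 from -0.061 to 0.19, daf-16 from -0.024 to 0.12 and sbp-1 from -0.0021 to 0.10. The cause of these changes was not tested. The depth behind the FPKM is unknown, so what it limits cannot be given.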

Other observations

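Families outside the lists, picked after their values were seen, also held calls in Nar+Glu against Glu. Of 47 tested ttr genes, which encode transthyretin-like secreted proteins, 10 were called higher and 1 lower, with a median change of 0.12. Their summed FPKM was 1450, 1634 and 1587 in Nar+Glu, against 1332, 1303 and 1313 in Glu, without overlap, and 1296, 1337 and 1282 in DMSO+Glu. Of 9 cdh genes, the cadherins that join cells, 4 were called higher and none lower (median 0.29), and of 24 twk genes, a family of potassium channels, 4 were higher and none lower (median 0.13). Of 10 abu genes, first known from worms in which the unfolded protein response was blocked, 4 were called lower and none higher, although 6 of the 10 changes were positive. Of 69 histone genes 1 was called lower and none higher. These shares are set beside a background of 3.84% of all genes called higher and 4.53% lower, and were given no test.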
